A study of Mus musculus with 8 samples.

Results

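The nuclear-encoded genes of oxidative phosphorylation were described in RNA-seq libraries of mouse primary motor cortex (M1) treated with *Fezf2 shRNA* or *non-silencing shRNA*. Members were chosen by symbol among protein-coding genes: symbols that begin with *Nduf*, *Uqcr* or *Atp5*, the *Cox* symbols numbered 4 to 8, the 4 succinate dehydrogenase genes *Sdha*, *Sdhb*, *Sdhc* and *Sdhd*, and cytochrome c (*Cycs*). This gave 94 of the 38031 genes with counts: 7 core subunits, 31 accessory subunits and 8 assembly factors of complex I, 4 genes of complex II, 9 of complex III with cytochrome c, 18 of complex IV and 17 of complex V. *Cyc1* of complex III and most assembly factors of the other complexes lie outside these symbols, and *Ndufa4*, named for complex I, is now regarded as part of complex IV but was kept with its symbol.

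Oxidative phosphorylation is carried out by 5 complexes of the inner mitochondrial membrane. Complexes I and II pass electrons from NADH and succinate to ubiquinone, complex III passes them on to cytochrome c, complex IV hands them to oxygen, and complex V makes ATP from the proton gradient that complexes I, III and IV build. The mitochondrial genome encodes 13 subunits, and the rest are made from nuclear genes and imported. Neurons depend on this pathway for most of the ATP that ion pumping and synaptic transmission use, and several complexes have subunit isoforms that differ between brain, muscle and testis.

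Male Swiss Webster mice were injected in M1 at P21 to P25 with a lentivirus and taken at P49 to P53, with 4 animals per treatment and 1 library of total RNA per animal. Both vectors carried a *Synapsin I* promoter, which is active in neurons, an mCherry reporter and an shRNA embedded in miR-30 sequence, either against *Fezf2* or non-silencing, so that the control animals shared the virus, promoter and reporter. *Fezf2* encodes a zinc finger transcription factor of deep layer projection neurons. The tissue was cut out by its mCherry signal and holds untransduced neurons, glia and vessels besides transduced neurons, and in such bulk tissue fewer cells of a type and less RNA per cell cannot be told apart.

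The libraries held 54684016 to 58003814 counts on genes. *Fezf2* had 687.5, 767.0, 734.7 and 702.2 normalized counts in the control libraries and 620.6, 582.9, 568.3 and 592.5 in the *Fezf2 shRNA* libraries. All 4 treated values were below all control values, with a log2 fold change of -0.29 ± 0.0781 (SE, n = 4 per treatment), an adjusted p of 0.0824 in edgeR's quasi-likelihood test and an exact two-sided permutation p of 0.0286, the smallest that 4 against 4 allows. Of the 5 neuronal markers (*Snap25*, *Rbfox3*, *Syt1*, *Slc17a7*, *Gad1*), 5 were tested and none was at 0, with summed normalized counts of 185098 to 206824 in control and 192032 to 201399 in treated libraries. At an unadjusted p under 0.05 in edgeR, 2 of the 5 were higher, both without overlap of the treatments, against 11.8% and 7.41% of all genes tested and 46.4% and 29.8% of genes of 100 kb or more. They were *Rbfox3* (log2 fold change 0.28) and *Syt1* (0.19), which span 418.4 and 513.3 kb, and with an offset for interval length their values were -0.0016 and -0.11. The other 3 had values below 0. The 4 oligodendrocyte markers summed here (*Mbp*, *Mog*, *Mag*, *Cnp*) had log2 fold changes below 0, with a median of -0.50, 3 of 4 lower at an unadjusted p under 0.05 (7.73% of all genes tested), none past the threshold, and summed counts of 32390 to 62763 in control against 27852 to 45079 in treated libraries. Of the 5 markers of pericytes and mural cells 3 were tested and 2 lower at that p, with a median of -0.32 and sums of 4331 to 5928 against 3869 to 4594. None of the 4 oligodendrocyte or 5 mural markers was at 0, and the part of these cells in the results below was not tested.

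No member passed the threshold of the comparison of *Fezf2 shRNA* with *non-silencing shRNA* (an adjusted p of at most 0.05 in edgeR and a log2 fold change of at least 0.2 in size). Of the 94 members 83 had the more than 8 CPM (counts scaled to library size) in at least 4 libraries that the test required. Over all 9959 genes tested, 2.09% passed, 1.96% of the genes tested being higher and 0.131% lower. The smallest adjusted p of a member was 0.0522, for *Ndufaf2*. At an unadjusted p under 0.05, 15 members were lower in *Fezf2 shRNA*-treated samples, 18.1% of those tested against 7.73% of all genes tested, and 3 were higher, 3.61% against 11.8%. Among the 15 were the core subunits *Ndufs1*, *Ndufs7*, *Ndufv1* and *Ndufv2* of complex I, the accessory subunit *Ndufa2*, the assembly factor *Ndufaf4*, *Uqcrb* and *Uqcrh* of complex III, *Cox6b1*, *Cox7a2l* and *Cox7b* of complex IV, and *Atp5a1*, *Atp5j2* and *Atp5mpl* of complex V. The 3 were *Ndufaf2*, *Ndufs4* and *Ndufaf5*, all genes of complex I. DESeq2 placed 3 members past the same threshold with and without its prior, where it called 7.37% and 7.55% of all genes. They were *Ndufaf2* and *Ndufs4*, which were higher, and *Ndufaf4*, which was lower.

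The shift of the members was small, and most of them shared its sign. The log2 fold change was below 0 for 75 of the 83 tested members (90.4%, against 56.6% of all genes tested), and its median was -0.13, a change of -8.48%, against -0.03 for all genes tested. By complex, the median was -0.18 over the 7 core subunits of complex I, -0.12 over 30 accessory subunits, -0.01 over 6 assembly factors, -0.14 over the 4 genes of complex II, -0.12 over the 9 of complex III with cytochrome c, -0.11 over 11 of complex IV and -0.13 over 16 of complex V. Every tested core subunit of complex I and every tested gene of complexes III, IV and V had a value below 0 (7 of 7, 9 of 9, 11 of 11 and 16 of 16), which the plot of fold changes by complex shows.

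**Figure D1:**
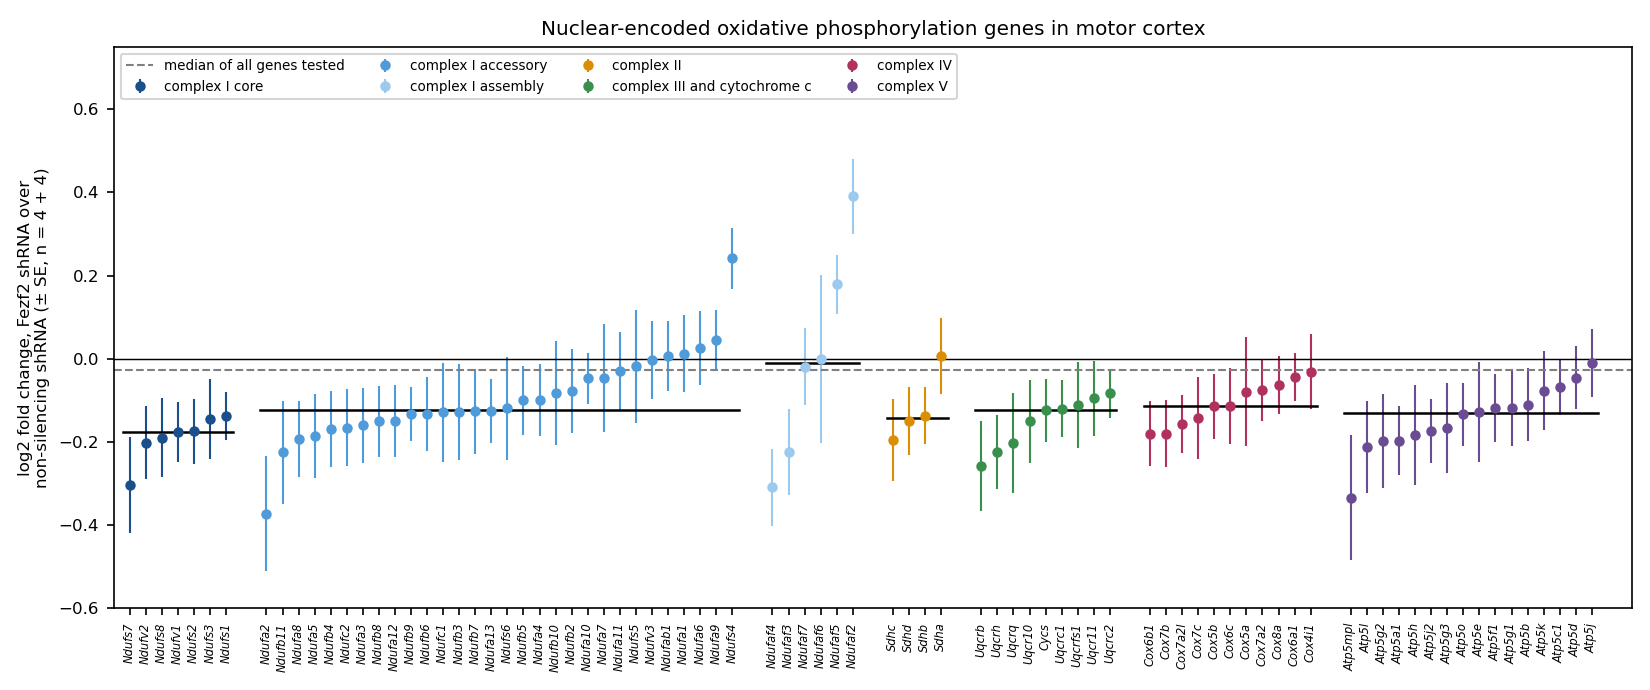
Log2 fold change of each tested member, *Fezf2 shRNA* over *non-silencing shRNA*, with its standard error (4 libraries per treatment), grouped and colored by complex; black bars mark the median of each group and the dashed line the median of all genes tested (-0.03). Most points lie slightly below 0, and *Ndufs4*, *Ndufaf5* and *Ndufaf2* stand above it.

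The size of this shift depended on single libraries. As medians over the 83 members of the log2 ratio to the control mean, control replicates 1, 2 and 4 stood at -0.05, -0.06 and -0.03 and control replicate 3 at 0.15. *Fezf2 shRNA* replicates 1, 3 and 4 stood at -0.14, -0.13 and -0.22, and replicate 2 at 0.01. Control replicate 3 held the highest of the 8 values for 57 of 83 members and *Fezf2 shRNA* replicate 4 the lowest for 39. *Fezf2 shRNA* replicate 2 was the highest of its own treatment for 61. The members took 0.369% to 0.432% of all counts in the control libraries and 0.333% to 0.389% in the treated ones, so that the 2 ranges overlapped. The 13 subunit genes of the mitochondrial genome did not follow the same libraries. Their summed counts were lowest among the controls in replicate 3, at 1797626, against 1859865 to 2195433 in the other controls.

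Left out in turn, 6 libraries moved the count of 15 members that were lower at an unadjusted p under 0.05 by more than 1.5 times. Dropping control replicate 3 left 1 such member and dropping control replicate 2 left 24. Dropping treated replicates 1, 2, 3 and 4 left 4, 26, 6 and 1. The median log2 fold change was -0.06 when control replicate 3 was dropped and -0.17 when treated replicate 2 was dropped. With both dropped, an alternative chosen after seeing the data, 13 members were lower and 3 higher at an unadjusted p under 0.05, none passed the threshold, and the median was -0.10.

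**Figure D2:**
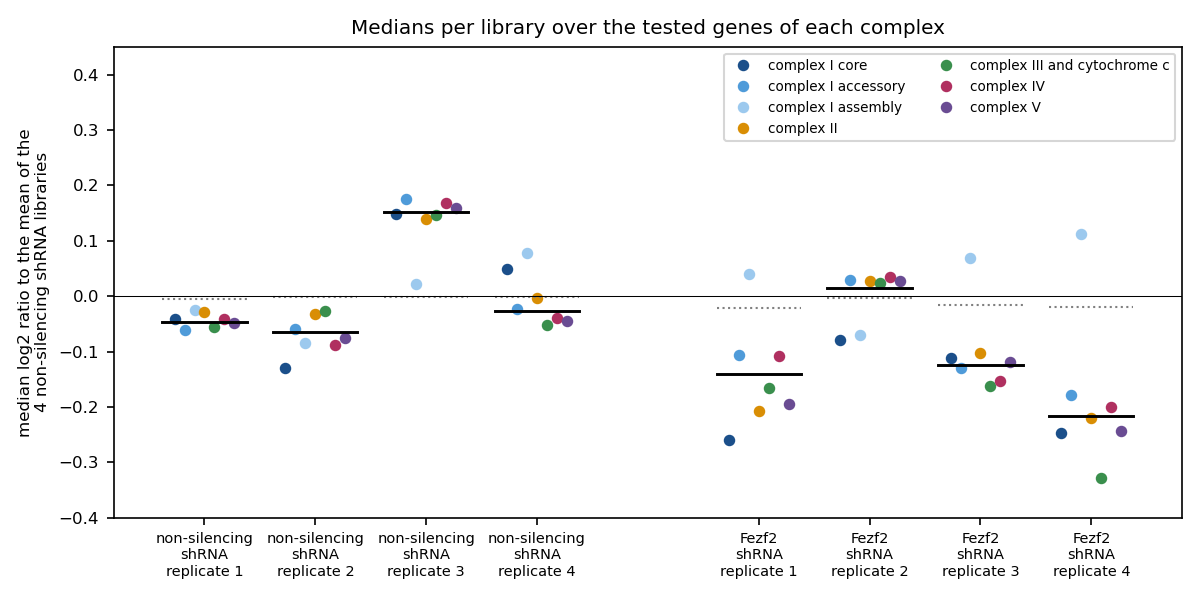
Median over the tested genes of each complex of the log2 ratio to the mean of the 4 control libraries, for each library (colored points), with the median over all 83 members (black bars) and over all genes tested (dotted bars). Control replicate 3 stands at 0.15 and *Fezf2 shRNA* replicate 2 at 0.01, both above the other 3 libraries of their treatment.

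The members were also short genes, and the fold change followed the length of the counted interval across the whole transcriptome. Counts were made over the genomic interval of 1 transcript per gene, introns included, and the median interval of the tested members spanned 7.12 kb against 28.5 kb over all genes tested. Spearman's rho between log2 fold change and interval length was 0.60 across the 9959 genes tested and 0.23 across the 83 members, both descriptions over genes that share the same 8 libraries. Among genes under 30 kb, 78.8% of all genes tested and 73 of 78 members had a value below 0, and 12.9% of these genes were lower at an unadjusted p under 0.05, against 17.9% of the members. None of the 78 members under 30 kb was higher at that p or lay above the controls in every treated library, against 1.6% and 0.701% of genes of that length. For intervals of 5 to 10 kb, the class with the most members, the median was -0.14 over 30 members and -0.11 over 1058 other genes, and 25 of the 30 lay below the median of the other genes. In all, 55 of 83 members lay below the median of the other genes of their length class. With a per-library offset for length the median of the members was -0.03, against -0.01 for all genes tested, and 2 members (*Ndufa2* and *Ndufaf4*) were lower and 2 (*Ndufaf2* and *Ndufaf5*) higher at an unadjusted p under 0.05. Over all genes tested, 2 passed the threshold with this offset, none of them higher, against 208 without it, of which 195 were higher.

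**Figure D3:**
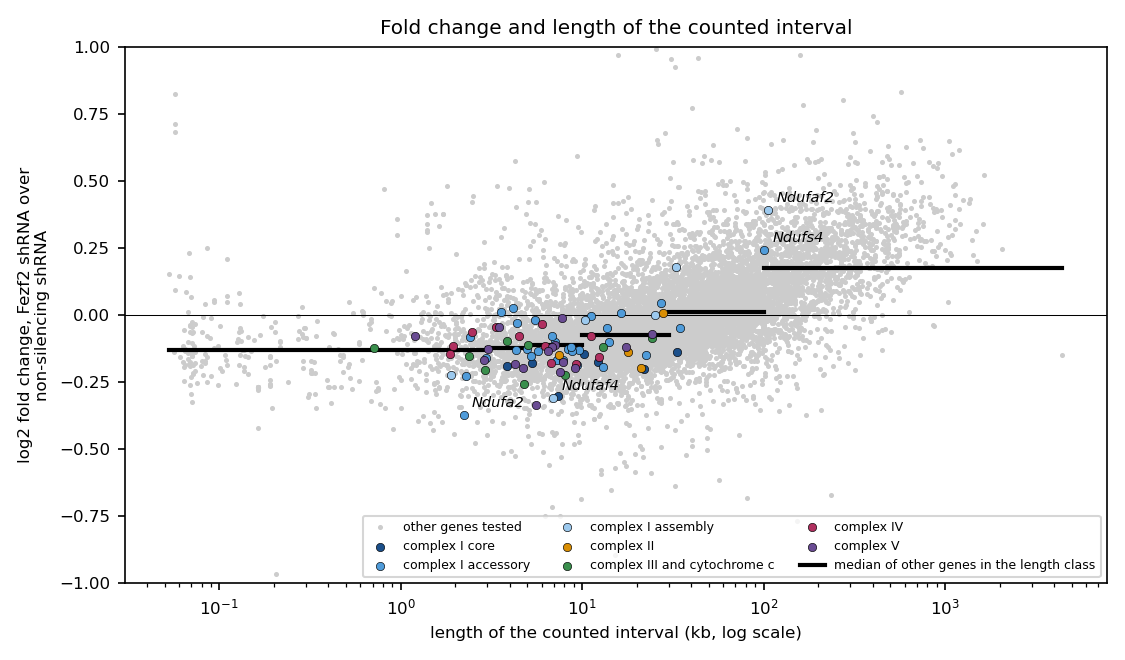
Log2 fold change against the length of the counted interval (kb, log scale) for all genes tested (grey) and the 83 tested members (colored by complex), with black bars at the median of the other genes in each of 6 length classes. The bars rise from -0.13 for intervals under 3 kb to 0.17 from 100 kb on; 18 other genes lie beyond the axis limits.

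In complex I, the 7 core subunits had values from -0.30 to -0.14. *Ndufs7* encodes the subunit with the last iron-sulfur cluster before ubiquinone. It lies at chr10:80249452-80256792 (GRCm38, plus strand) and had 1339.7, 1229.4, 1763.5 and 1381.1 normalized counts in control libraries and 1236.2, 1275.3, 1107.7 and 1012.3 in treated ones. The treatments overlapped through control replicate 2, and the log2 fold change was -0.30 ± 0.115 (SE, adjusted p = 0.192 in edgeR). *Ndufv1*, the flavoprotein that accepts electrons from NADH, had 2908 to 3507 counts in control and 2665 to 3007 in treated libraries, with a log2 fold change of -0.18 ± 0.0720 and an adjusted p of 0.215. *Ndufs1*, the large iron-sulfur subunit of the same arm, was the only core subunit whose treatments did not overlap, with 3802 to 4286 counts in control and 3517 to 3771 in treated libraries. Its log2 fold change was -0.14 ± 0.0581 (adjusted p = 0.229), and a noncoding gene on the annotation, *Ino80dos*, covered 44.2% of its counted interval.

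*Ndufa2*, an accessory subunit of the matrix arm (chr18:36742332-36744557, minus strand), had the lowest log2 fold change of all members. Its normalized counts were 497.7, 569.8, 739.6 and 504.8 in control and 461.2, 494.5, 446.9 and 383.1 in treated libraries. The treatments did not overlap, but the gap between the nearest libraries was small, and the log2 fold change was -0.37 ± 0.139 (adjusted p = 0.183), or -0.22 without control replicate 3. *Ndufs4*, another accessory subunit of the matrix arm, whose loss causes encephalopathy in mice and Leigh syndrome in humans, had a positive value. It spans 100.5 kb (chr13:114287795-114388258, minus strand) and had 1660.3, 1500.9, 1400.6 and 1489.1 counts in control and 1923.5, 1635.1, 1777.5 and 1818.3 in treated libraries. Only control replicate 1 reached into the range of the treated libraries, and the log2 fold change was 0.24 ± 0.0736 (adjusted p = 0.112). With the length offset it was 0.14, with an unadjusted p of 0.0605 in edgeR. *Ndufb9*, the accessory subunit with the highest level per kb of counted interval, had a log2 fold change of -0.13 ± 0.0655, and a predicted gene covers 62.9% of its interval.

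The assembly factors of complex I differed most among themselves. *Ndufaf2*, a paralog of the subunit *Ndufa12* that binds a late assembly intermediate, spans 106 kb (chr13:108052589-108158623, minus strand). Its normalized counts were 634.4, 714.3, 692.4 and 709.0 in control and 819.4, 839.2, 990.3 and 956.1 in treated libraries. All 4 treated libraries exceeded all 4 controls, as for 7.41% of all genes tested and 29.8% of genes of 100 kb or more, and it was the only member with this pattern. The log2 fold change was 0.39 ± 0.0893 (unadjusted p = 0.00117, adjusted p = 0.0522 in edgeR), and the adjusted p ranged from below to above the threshold with the normalization, at 0.0489 with median of ratios scaling. Without *Fezf2 shRNA* replicate 2 the adjusted p was 0.0477. With the length offset the log2 fold change was 0.29 (unadjusted p = 0.00605).

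*Ndufaf4*, a factor for the ubiquinone-binding module (chr4:24898083-24905001, plus strand), was lower in every treated library than in any control. Its counts were 906.9, 723.6, 796.7 and 767.4 in control and 690.3, 651.2, 627.0 and 608.8 in treated libraries, a log2 fold change of -0.31 ± 0.0916 (adjusted p = 0.105). With *Ndufa2* and *Ndufs1* it made up the 3 members (3.61%) whose treated values all lay below the controls, against 4.41% of all genes tested and 7.15% of genes under 30 kb. *Ndufaf3*, its partner in the same assembly step, had a log2 fold change of -0.22 ± 0.104 (adjusted p = 0.263) with overlapping treatments. *Ndufaf5*, an enzyme that modifies *Ndufs7* protein and was named after its values were seen, had 1006 to 1111 counts in control and 1108 to 1270 in treated libraries, ranges that overlapped only narrowly, with a log2 fold change of 0.18 ± 0.0716 (adjusted p = 0.211).

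None of the 4 genes of complex II, which is also an enzyme of the citric acid cycle, reached an unadjusted p of 0.05. The flavoprotein gene *Sdha* had a log2 fold change of 0.01 ± 0.0921, and the iron-sulfur subunit *Sdhb* -0.14 ± 0.0687. The membrane anchors *Sdhc* and *Sdhd* had -0.20 ± 0.0985 and -0.15 ± 0.0822, with adjusted p values in edgeR of 0.292 and 0.325. *Sdha* changed sign in 5 alternatives, among them library totals as normalization, where it was -0.02, so that no direction can be given for it.

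In complex III, *Uqcrh*, the hinge protein that holds cytochrome c1, lies at chr4:116066965-116075031 (minus strand). It had 3005.9, 3017.3, 3477.8 and 3023.8 normalized counts in control and 2552.2, 3111.4, 2677.2 and 2378.1 in treated libraries. *Fezf2 shRNA* replicate 2 lay among the controls and the other 3 treated libraries below them, with a log2 fold change of -0.22 ± 0.0882 (adjusted p = 0.204). *Uqcrb*, a small subunit near the ubiquinone site, had -0.26 ± 0.109 (adjusted p = 0.229), and *Uqcrc2*, a core protein with the lowest level per kb in the complex, -0.08 ± 0.0594. *Cycs*, the mobile carrier of electrons to complex IV, had 2142 to 2331 counts in control and 1816 to 2257 in treated libraries and a log2 fold change of -0.12 ± 0.0758 (adjusted p = 0.373). *Cyc1*, the heme subunit outside the symbol rule, had the same log2 fold change to 2 decimals, -0.12 ± 0.0805.

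In complex IV, the smallest unadjusted p values belonged to *Cox6b1*, which lies where the enzyme forms its dimer, and *Cox7a2l*, which takes part in joining complexes III and IV into supercomplexes. *Cox6b1* had 3488.8, 3376.5, 4067.9 and 3463.5 normalized counts in control and 3330.2, 3440.1, 2973.8 and 2961.4 in treated libraries, with a log2 fold change of -0.18 ± 0.0786 (adjusted p = 0.239). *Cox7a2l* had 3128 to 3804 and 2912 to 3181 counts, with -0.16 ± 0.0699 (adjusted p = 0.245). In both genes 1 treated library overlapped the lowest control. The subunits *Cox8a*, *Cox7a2*, *Cox6a1*, *Cox5a* and *Cox4i1* had values between -0.08 and -0.03, and with the length offset the sign of each of these 5 turned to between 0.01 and 0.07.

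In complex V, the catalytic core is built of alpha subunits (*Atp5a1*) and beta subunits (*Atp5b*). *Atp5a1* had 20688.9, 21208.8, 23540.1 and 19620.4 normalized counts in control and 18100.4, 20472.5, 18820.0 and 16819.4 in treated libraries. *Fezf2 shRNA* replicate 2 overlapped the lowest control, and the log2 fold change was -0.20 ± 0.0824 (adjusted p = 0.226). *Atp5b* had -0.11 ± 0.0879. *Atp5j2*, the f subunit of the membrane part, had -0.17 ± 0.0769 (adjusted p = 0.244) and *Atp5mpl*, a small proteolipid of the membrane part, -0.33 ± 0.150 (adjusted p = 0.250). The 3 genes for the identical mature c subunit of the rotor, *Atp5g1*, *Atp5g2* and *Atp5g3*, had -0.12 ± 0.0921, -0.20 ± 0.113 and -0.17 ± 0.108.

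Levels between members were compared per kb of counted interval in the control libraries. The highest were *Cox8a* at 3331 ± 121 normalized counts per kb (SD, n = 4), *Atp5b* at 3125 ± 263 and *Cycs* at 3116 ± 122, with ranges over the control libraries that overlapped. In complex II *Sdha* was highest (242 ± 27.8) and *Sdhc* lowest (66.5 ± 5.52), and among core subunits of complex I *Ndufv1* (607 ± 48.2) and *Ndufs1* (120 ± 6.44) were the extremes. The lowest tested members were *Ndufaf2* at 6.48 ± 0.345 and *Ndufs4* at 15.1 ± 1.08, the 2 tested members with the longest intervals. Per kb of exonic bases *Ndufaf2*, at 1014, was the highest of the 6 tested assembly factors, so that the order of genes depends on the length used. *Cox8a* (14924 per exonic kb), *Atp5b* (11610) and *Sdha* (2342) remained the highest of their complexes on that scale. *Cycs* (3661) did not, and *Uqcrh* (7789) was the highest of complex III with cytochrome c. *Ndufv2* (3086) took the place of *Ndufv1* among core subunits of complex I, and *Ndufa4* (6426) that of *Ndufb9* among accessory subunits.

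Among subunit isoforms, the ubiquitous gene exceeded its muscle or testis counterpart in every library with counts. *Cox4i1* had 338 times the level per kb of *Cox4i2*, the isoform of lung and of low oxygen (216 to 510 over 8 libraries), *Cox6a1* 70.9 times that of the heart and muscle isoform *Cox6a2* (42.5 to 112), and *Cox6b1* 41.4 times that of the testis isoform *Cox6b2* (25.4 to 120). *Cox7a2* had 32.6 times the level of the muscle isoform *Cox7a1* (20.7 to 57.6) and *Cox8a* 486 times that of the muscle isoform *Cox8b* (122 to 1204 over 7 libraries, the other having 0 counts of *Cox8b*). *Cox8c*, a testis isoform, had 0 counts in all 8 libraries, which allows up to 3 counts in each. *Ndufa4* had 39.8 times the level of *Ndufa4l2*, which is induced by low oxygen (27.3 to 65.6). Among the tested sister genes, *Cox7a2l* had 0.54 times the level of *Cox7a2*.

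These minor isoforms were below the expression filter, with raw counts of 20 to 46 for *Cox4i2*, 13 to 39 for *Cox6a2*, 4 to 19 for *Cox6b2*, 17 to 45 for *Cox7a1*, 0 to 36 for *Cox8b* and 13 to 33 for *Ndufa4l2*. The counted interval of *Cox4i1* lies wholly within that of *Gm20388*, so that reads of *Cox4i1* were also counted for *Gm20388*. *Cox6a2* lies within the annotated gene *Itgad*, but the transcript counted for *Itgad* reaches only its edge. The summed counts of 4 muscle markers (*Acta1*, *Ckm*, *Myh4*, *Tnnt3*) were 336 to 402 in control and 333 to 376 in treated libraries. *Cox7b2*, a testis gene named after its values were seen, spans 105 kb and had 261 to 363 counts in control and 326 to 430 in treated libraries. *Cox7b* had 102 times its level per kb of interval but 3.55 times per kb of exonic bases. For the c subunit, *Atp5g3* was highest per kb of interval in all 8 libraries, with *Atp5g1* at 0.54 and *Atp5g2* at 0.55 times its level. Per kb of exonic bases *Atp5g2* had 1.47 times the level of *Atp5g3*, so that their order was not settled.

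**Figure D4:**
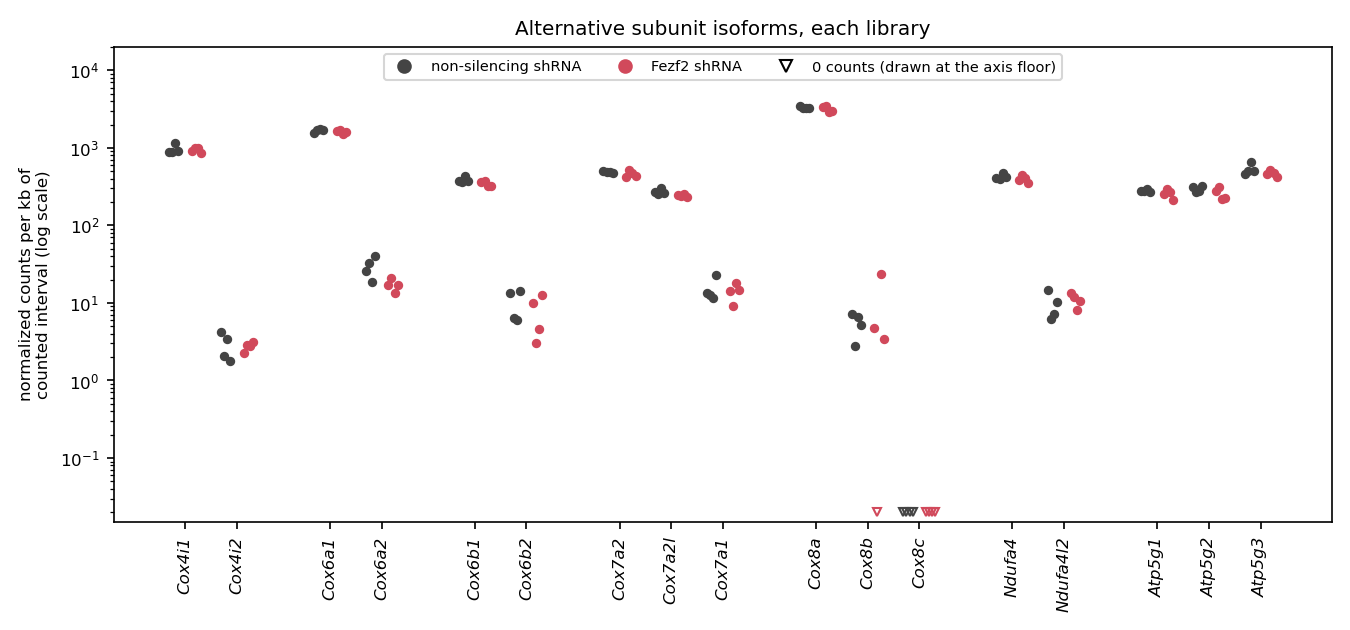
Normalized counts per kb of counted interval (log scale) of alternative subunit isoforms in each control (grey) and *Fezf2 shRNA* (red) library; open triangles at the floor mark libraries with 0 counts. *Cox4i1*, *Cox6a1*, *Cox6b1*, *Cox7a2*, *Cox8a* and *Ndufa4* lie 20.7 times or more above their minor isoforms in every library with counts.

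The other gene groups of mitochondrial energy supply gave smaller or similar medians. The 13 protein-coding genes of the mitochondrial genome had a median log2 fold change of -0.02, with 0 at an unadjusted p under 0.05 in edgeR and 0 past the threshold, and their summed counts overlapped (1797626 to 2195433 against 1683555 to 2194632). Of 26 tested assembly factors outside the symbol rule, 1 was lower and 3 higher at that p (median -0.04). The 3 made up 11.5%, near the 11.8% of all genes tested that were higher. Of 17 genes of the citric acid cycle and pyruvate dehydrogenase 3 were lower (median -0.06), and of 50 tested mitochondrial ribosomal protein genes 7 were lower (median -0.11). One of these, *Mrpl10*, named after its values were seen, fell by 0.36 on the log2 scale (adjusted p = 0.0482 in edgeR). It alone of the 50 passed the threshold, which 2.09% of all genes tested passed (0.131% of them as lower genes). With the length offset its value was -0.26. Of 13 tested import genes 2 were lower (median -0.11), of 12 carrier and channel genes 1 (median -0.12), and of 16 glycolytic genes 2 (median -0.11). None of the genes in the last 3 lists passed the threshold. The shares lower were 3.85%, 17.6%, 14%, 15.4%, 8.33% and 12.5% of the tested genes of these 6 nuclear lists, against 7.73% of all genes tested and 12.9% of genes under 30 kb, and the median interval of each list spanned 8.08 to 24.8 kb.

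Regulators of these genes were measured in the same libraries. Of 11 tested regulators 2 were lower (18.2%, against 7.73% of all genes tested) and 1 higher (9.09%, against 11.8%) at an unadjusted p under 0.05. The 2 lower ones, *Esrra* and *Tfam*, were also the 2 whose treated values all lay below the controls (18.2%). This held for 4.41% of all genes tested and 7.15% of genes under 30 kb. They span 10.8 and 12.8 kb, and 12.9% of genes under 30 kb were lower at that p. With the length offset their log2 fold changes were -0.12 and -0.088. Of the 11 regulators, 1 lay above the controls in every treated library (9.09%, against 7.41% of all genes tested). *Esrra*, a nuclear receptor that activates genes of respiration, had 1148 to 1318 counts in control and 974 to 1147 in treated libraries, values that met but did not overlap, with a log2 fold change of -0.21 ± 0.0757 (adjusted p = 0.171). *Tfam*, which packages and transcribes mitochondrial DNA, had -0.17 ± 0.0750 (adjusted p = 0.239) with no overlap either. *Nrf1* had 0.05 ± 0.125, *Gabpa* -0.10 ± 0.0834 and the coactivator *Ppargc1a* 0.14 ± 0.0810, with overlapping treatments in each.

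Promoter windows of 300 bases (250 before to 50 after the RefSeq start, GRCm38.p6) matched 75 of the 94 members by symbol and strand. The NRF1 motif, a palindrome of 10 letters shown as the capitals of the *Ndufaf4* sequence, was found in 7 of the 75 (9.33%), against 0.971% of all 32851 windows. The YY1 motif AAGATGGC was found in 9 of the 75 (12%, against 2.75%) and the ERR motif TCAAGGTCA in only 2 (2.67%, against 0.423%). The ETS motif CCGGAAGT, which GABPA binds, was found in 5 (6.67%, against 3.89%). In the windows of 7137 other tested protein-coding genes the NRF1, YY1, ERR and ETS motifs were found in 2.3%, 5.28%, 0.168% and 8.66%. Both strands were searched, only exact matches were counted, and no motif overlapped another in the printed sequences. The tested members with the NRF1 motif had a median log2 fold change of -0.08 (7 genes) and those without it -0.13 (62 genes). Without the first 2 letters of this motif, a search chosen after seeing the data, 13 of the 75 windows held it (17.3%, against 2.71% of all windows), with medians of -0.12 over 13 tested members with it and -0.13 over 56 without. A match is a description of these letters and shows no binding.

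The 250 bases upstream are printed, 5′ to 3′ on the strand of the gene, for the 2 tested members with the longest intervals (*Ndufaf2* and *Ndufs4*), for *Ndufaf4*, which had the smallest p among lower members, and for *Uqcrh*, with motif matches in capitals. In these 250 bases the first 2 held no match. *Ndufaf4* held the NRF1 motif at position -113, and *Uqcrh* the ETS motif on the other strand at position -11. The 50 bases after the RefSeq start were also searched but are not printed, so matches that reach into them are not marked. No YY1 match of any member lay wholly in the 250 upstream bases. For *Ndufs4* the RefSeq start lies 164 bases inside the counted interval, so that its window overlaps that interval. The windows are chr13:108158626-108158875, minus strand; chr13:114388095-114388344, minus strand; chr4:24897833-24898082, plus strand; and chr4:116075071-116075320, minus strand.
Ndufaf2: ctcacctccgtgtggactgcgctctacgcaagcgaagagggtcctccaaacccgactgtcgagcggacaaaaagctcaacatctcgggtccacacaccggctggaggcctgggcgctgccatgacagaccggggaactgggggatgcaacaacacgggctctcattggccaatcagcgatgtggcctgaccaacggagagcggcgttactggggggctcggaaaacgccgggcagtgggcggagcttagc
Ndufs4: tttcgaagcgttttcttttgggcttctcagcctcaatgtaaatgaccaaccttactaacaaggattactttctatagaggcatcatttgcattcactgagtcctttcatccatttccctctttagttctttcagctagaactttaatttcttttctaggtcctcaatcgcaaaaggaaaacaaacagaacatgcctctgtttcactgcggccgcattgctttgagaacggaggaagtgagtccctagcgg
Ndufaf4: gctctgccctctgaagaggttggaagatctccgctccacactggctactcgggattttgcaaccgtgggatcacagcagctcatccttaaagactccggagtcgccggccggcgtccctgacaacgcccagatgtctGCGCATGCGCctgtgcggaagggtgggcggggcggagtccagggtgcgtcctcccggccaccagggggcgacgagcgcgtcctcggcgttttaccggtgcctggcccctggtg
Uqcrh: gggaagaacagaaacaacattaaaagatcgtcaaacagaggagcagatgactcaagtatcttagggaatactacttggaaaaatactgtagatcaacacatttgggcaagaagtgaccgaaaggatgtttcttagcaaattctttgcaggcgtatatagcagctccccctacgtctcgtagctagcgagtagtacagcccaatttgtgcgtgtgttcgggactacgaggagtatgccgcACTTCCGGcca

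**Figure D5:**
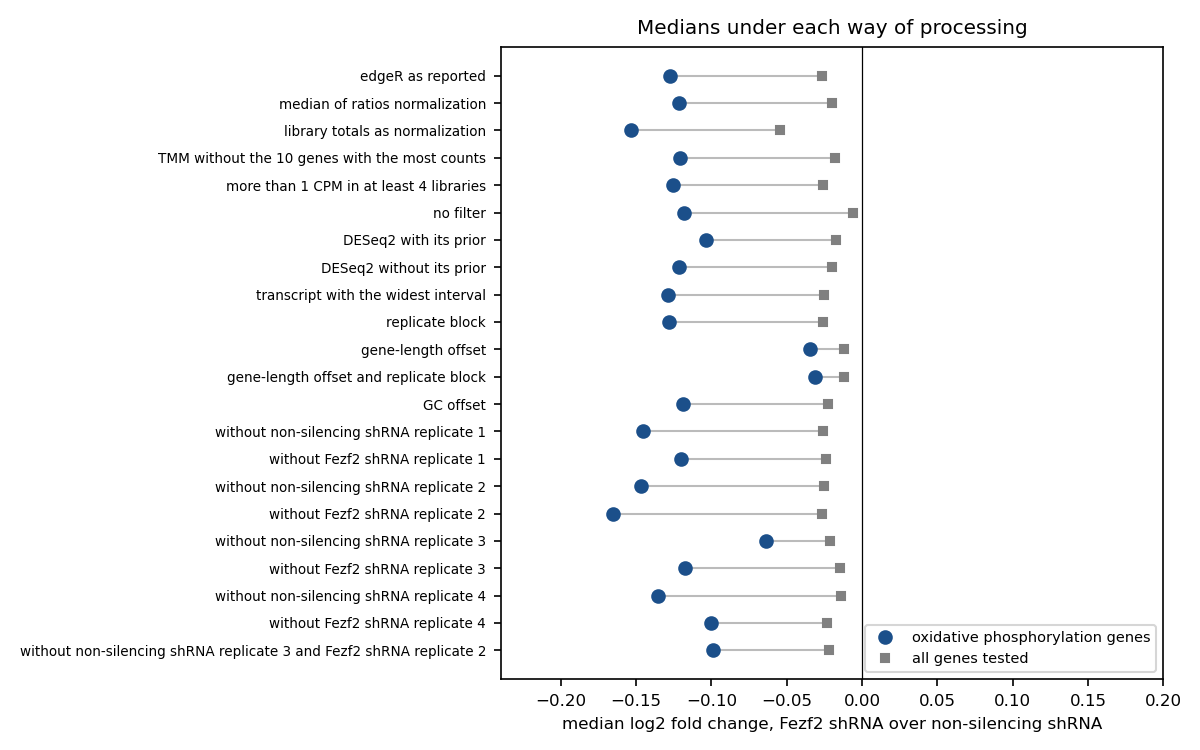
Median log2 fold change of the members (blue circles) and of all genes tested (grey squares) under each way of processing. The members lie below all genes in every setting, between -0.17 without *Fezf2 shRNA* replicate 2 and -0.03 with a gene-length offset.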

How the data were processed

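Total RNA libraries of M1 were compared between *Fezf2 shRNA* (n = 4) and *non-silencing shRNA* (n = 4), grouped by the labels. The p-values set the difference between treatments against the spread of the libraries within each treatment. The authors aligned reads to mm10 with TopHat2 2.1.1 and counted them per Ensembl transcript interval with BEDTools multiCov, and these raw counts were used as deposited. Whether reads with several alignments or from the opposite strand were counted is not given in the sources used here, and 11 of 94 members share at least 10% of their interval with another gene. The authors' DESeq2 table holds their own comparison and was not used. Transcripts were matched to GENCODE M21 (91320 of 94647, and the other 3327, with 1.82% of counts, were left out), and each gene was represented by its lowest-numbered transcript. A second gene model named *Atp5o* was left out.

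Genes above 8 CPM in 4 or more libraries entered edgeR 4.0.16 under R 4.3.3 (TMM, quasi-likelihood test, no covariate), and p-values were adjusted by the method of Benjamini and Hochberg. Normalized counts were scaled by effective library size to the mean of the libraries. Standard errors are the log2 fold change over the root of the F statistic. Alternatives were DESeq2 1.42.0, other normalizations and filters, the widest transcript, loess offsets (span 0.3) for length or GC, a replicate block and libraries left out. The code was tested on simulated data. Libraries held 54684016 to 58003814 counts.

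The members and gene lists were chosen with earlier results of these data known. Named members are the 2 with the smallest unadjusted p in each of 7 groups, the subunit isoforms, the genes of complex II, *Cycs*, and the highest and lowest level per length of each group. *Ndufaf5*, *Mrpl10*, *Cox7b2* and *Cox7b*, and members given only in a list of those at an unadjusted p under 0.05, were named after their values were seen. One member and 1 cell type marker are not reported here by name, and the marker was left out of its list after the values were seen.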

Additional observations from a re-analysis of the deposited data

Results flagged for a closer look

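Of 82 sets of 4 libraries examined for a library far from the other 3 by Dixon's ratio of the gap to the whole range at its 95% critical value, 4 were marked, and chance marks about 1 in 20 such sets. Control replicate 3 was the high library in 3 of them. It had 4067.9 normalized counts of *Cox6b1* against 3376.5 to 3488.8 in the other controls, 3477.8 of *Uqcrh* against 3005.9 to 3023.8, and 6877.9 of *Cox4i1* against 5244.9 to 5470.0. *Fezf2 shRNA* replicate 2 was the high library in the other, with 2778.8 normalized counts of *Ndufv2* against 2377.6 to 2402.5 in the other treated libraries.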

How the results depend on the processing

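No member passed the threshold as reported. *Ndufaf2* did with median of ratios normalization, with TMM leaving out the 10 most abundant genes and without *Fezf2 shRNA* replicate 2 (1 member each, 0 to 1 over the libraries left out in turn), and 3 members did in DESeq2 with or without its prior. The 15 members lower at an unadjusted p under 0.05 became 7 with TMM leaving out the 10 most abundant genes, 9 with no filter, 2 with the gene-length offset, 2 with that offset and the block, and 1 to 26 over the libraries left out in turn. The 3 members lower without overlap became 5 with library totals, 1 with the length offset with or without the block, 3 to 23 over the libraries left out in turn, and 21 without both control replicate 3 and *Fezf2 shRNA* replicate 2. The 1 member higher without overlap became 2 with library totals, TMM leaving out the 10 most abundant genes, the widest transcript and the length offset with or without the block, 1 to 3 over the libraries left out in turn, and 3 without both libraries. The cause of these shifts was not tested, except that fewer libraries make an overlap less likely by construction.

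The median log2 fold change of complex IV was -0.0058 with the length offset and 0.00082 with the block added, and that of the accessory subunits of complex I -0.0223 and -0.0218. That of the assembly factors was -0.11 with more than 1 CPM, where more of them were tested, -0.088 to 0.11 over the libraries left out in turn and 0.20 without both libraries, so that no direction can be given for it. The median over all members was below 0 in every alternative. The sign turned with the length offset for *Cox4i1* (0.0748), *Cox6a1* (0.0607), *Cox7a2* (0.0293), *Cox8a* (0.0382), *Ndufa4* (0.0034) and *Cox5a* (0.0094), and with the block added they stood at 0.0810, 0.0608, 0.0269, 0.0381, 0.00201 and 0.00475. It turned with the GC offset for *Cox4i1* (0.0253), *Cox6a1* (0.0157) and *Sdha* (-0.0172), with library totals for *Sdha* (-0.0198), and without both libraries for *Cox4i1* (0.0464). Over the libraries left out in turn, *Sdha* ranged from -0.0702 to 0.0587, *Cox4i1* from -0.0729 to 0.0752 and *Cox5a* from -0.18 to 0.00044. Per kb of exonic bases, the ratio was 182 for *Cox4i1* over *Cox4i2*, 296 for *Cox6a1* over *Cox6a2*, 264 for *Cox6b1* over *Cox6b2*, 0.916 for *Cox7a2l* over *Cox7a2*, 3.55 for *Cox7b* over *Cox7b2*, 257 for *Ndufa4* over *Ndufa4l2*, 0.193 for *Atp5g1* and 1.47 for *Atp5g2* over *Atp5g3*, and 0.131 for *Atp5g1* over *Atp5g2*. Exonic intervals were not compared, since 1 member had one.

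Over all genes, the 208 calls became 144 with library totals, 84 with more than 1 CPM, 103 with no filter, 734 and 752 in DESeq2 with and without its prior, 2 with the length offset with or without the block, 90 with the block, and 0 to 368 over the libraries left out in turn. With the replicate block, 0 members passed the threshold, 12 were lower and 2 higher at an unadjusted p under 0.05, and their median was -0.13. Same-numbered libraries had correlations of deviations of 0.30, 0.09, -0.13 and 0.17, and 2 of 4 control libraries correlated best with their own number, so that the numbers were not taken to pair the libraries.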

Other observations

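Transcript intervals with at most 5% of bases in exons of protein-coding transcripts and at least 100 reads on average were found for 20 members. The widest was taken per gene. Such an interval can span a whole gene with all its exons, so that reads of spliced RNA were not kept apart from reads of introns. Their median log2 fold change was -0.15, with 15 of 20 below 0, against -0.01 over all 4703 such intervals. The 4703 intervals were normalized on their own and without a length offset, and the 20 were not compared with others of their length. In edgeR 7 of the 20 were lower and 1 higher at an unadjusted p under 0.05, against 10.4% lower and 11% higher over all such intervals. A second annotated gene model with the symbol *Atp5o* (chr16:91684398-91926982, 242.6 kb) had a log2 fold change of 0.01, where the model counted as a member, of 6.47 kb, had -0.13.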
